A study of Homo sapiens with 4 samples.

Results

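The genes described here are 10 regulators of the G1 phase of the cell cycle, the D cyclins CCND1, CCND2 and CCND3, the kinases CDK4, CDK6 and CDK2, the E cyclins CCNE1 and CCNE2, and the inhibitors CDKN1B and CDKN1C. They were taken by name from the 60674 features of the expression matrices, and all 10 were present. The cells were human pluripotent stem cells (hPSC) that had been infected with a lentiviral pool of guide RNAs, with EGFP driven by the EF1α promoter, and with a second lentivirus carrying Cas9 and mCherry. They were sorted on fluorescence and had 1 week of recovery. One culture was profiled after induction towards ectoderm and one as hPSC, each as 1 single-cell 3′ library, in which every molecule carries a molecular identifier (UMI). The ectoderm culture and the hPSC culture therefore share the infection, the sort and Cas9, and they differ in state and also in their guide pools, which target different genes. Of the 10 regulators, 0 were targeted by a guide. All samples are labelled with one established line. Expression in 2 of the 2 libraries did not match that line, and which line the cells came from is unsettled.

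D cyclins bind CDK4 and CDK6, and these kinases begin the phosphorylation of the retinoblastoma protein, which frees E2F transcription factors. E cyclins bind CDK2 and carry the cell over the border between G1 and S phase, and CDKN1B (the protein p27) and CDKN1C (the protein p57) bind cyclin and kinase complexes and hold them back. Pluripotent stem cells are known for a short G1 phase, and early neural progenitors lengthen it as they mature.

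After filtering there were 16360 ectoderm cells and 15326 hPSC cells, whose UMIs summed to 91249888 in ectoderm and 83246015 in hPSC, and the median cell had 4499 UMIs in ectoderm and 4807.5 UMIs in hPSC. The libraries shared 78 cell barcodes. The 10 markers of neural ectoderm summed to 2405 CPM in the ectoderm library and 351 CPM in the hPSC library, where CPM are UMIs scaled to a common library total. The 10 pluripotency markers summed to 2092 CPM in ectoderm against 2757 CPM in hPSC. The neural list had 0 markers without a UMI in either library, but 9 of its 10 markers were at 5 CPM or more in ectoderm and 4 in hPSC. Of the 10 pluripotency markers, 6 were at 5 CPM or more in ectoderm and 10 in hPSC. The neuron list was lower in ectoderm, at 60.4 CPM, than in hPSC, at 130 CPM. Lists for neural crest, mesoderm, mesenchyme and amnion summed to between 11.8 CPM and 93.6 CPM in ectoderm and between 8.01 CPM and 73.0 CPM in hPSC. Lists for surface ectoderm, endoderm and blood or endothelium summed to at most 0.679 CPM in ectoderm and 1.66 CPM in hPSC. With 1 library per state there was no replicate check and no test. Every interval below is a 95% interval that covers counting error only, and state, guide pool and culture cannot be told apart.

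Promoters are shown for CCNE1 and CDKN1B, members with a promoter window and a call by S phase share or by late cycle score in the results that follow, a choice made after those values were seen. Each is the 250 bases before the RefSeq transcription start in GRCh38.p14, read 5′ to 3′ on the plus strand, and capitals mark matches to the searched motifs. The first lies at chr19:29811741-29811990 and the second at chr12:12717118-12717367. The gene positions given below come from GENCODE and start elsewhere, CCNE1 at 29811898, inside its window, and CDKN1B at 12715058, before its window. The windows and distances therefore hold for the RefSeq start only.
CCNE1: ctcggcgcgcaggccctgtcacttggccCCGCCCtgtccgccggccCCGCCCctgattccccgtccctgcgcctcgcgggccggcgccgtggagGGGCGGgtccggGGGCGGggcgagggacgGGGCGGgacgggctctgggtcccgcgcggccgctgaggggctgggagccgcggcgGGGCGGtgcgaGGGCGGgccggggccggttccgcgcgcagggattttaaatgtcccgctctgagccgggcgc
CDKN1B: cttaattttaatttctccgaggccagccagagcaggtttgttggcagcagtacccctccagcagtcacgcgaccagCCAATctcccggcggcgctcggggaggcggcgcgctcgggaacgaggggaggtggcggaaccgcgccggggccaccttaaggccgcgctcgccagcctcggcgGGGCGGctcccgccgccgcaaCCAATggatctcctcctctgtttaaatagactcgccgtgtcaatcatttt

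The CCNE1 window is 81.2% G and C and holds 7 matches to the GC box GGGCGG, on either strand. The CDKN1B window is 64.4% G and C and holds 1 GC box, 71 bases before the start, and 2 CCAAT boxes (CCAAT), 174 and 50 bases before the start. Neither window matched the E2F motif TTTNNCGC or the CHR motif TTTGAA, the cell cycle homology region found in promoters of late cell cycle genes. RefSeq windows were at hand for 5 of the 10 members, CCND3, CDK6, CDKN1B, CDK4 and CCNE1, 8 windows in all. GC boxes matched in 6 of these 8 windows, against 42.6% of 35116 promoters. CCAAT matched in 3 of 8 windows, against 32.0% of promoters, and E2F in 0 of 8, against 5.92%. CHR matched in 0 of 8 windows of the members, and in 3 of 3 windows of TOP2A, MKI67 and PLK1, against 13.3% of promoters. A match is a run of letters and no evidence of binding, and the absence of a match concerns only these letters in this window. CCND1, CCND2, CCNE2, CDK2 and CDKN1C are named only.

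The first comparison set the level of each regulator in the ectoderm library against the hPSC library. CCND1 and both inhibitors were at higher levels in ectoderm, CCND2 and CDK6 at lower levels, and CDK4 was at nearly the same level. None of these differences reached 2-fold. A gene was counted as tested when either library had 20 CPM or more, and as called when its log2 ratio reached 1 in either direction, and 6 of the 10 members were tested. Of these, 0 were called, while 7.28% of the 6250 genes tested were, 3.25% higher and 4.03% lower. At the smaller log2 ratio of 0.5, 1 member was past that size in the higher direction, CDKN1B, against 11.4% of genes, and 1 in the lower direction, CDK6, against 14.2% of genes, or 25.6% in either direction. The median log2 ratio of the 6 tested members was 0.09, and that of all genes tested was -0.03. The counting intervals of CDK4 and CCNE2 included a ratio of 1, and those of the other members did not. The share of all genes whose interval excludes 1 was not counted, so this is no trait of the members.

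**Figure D1:**
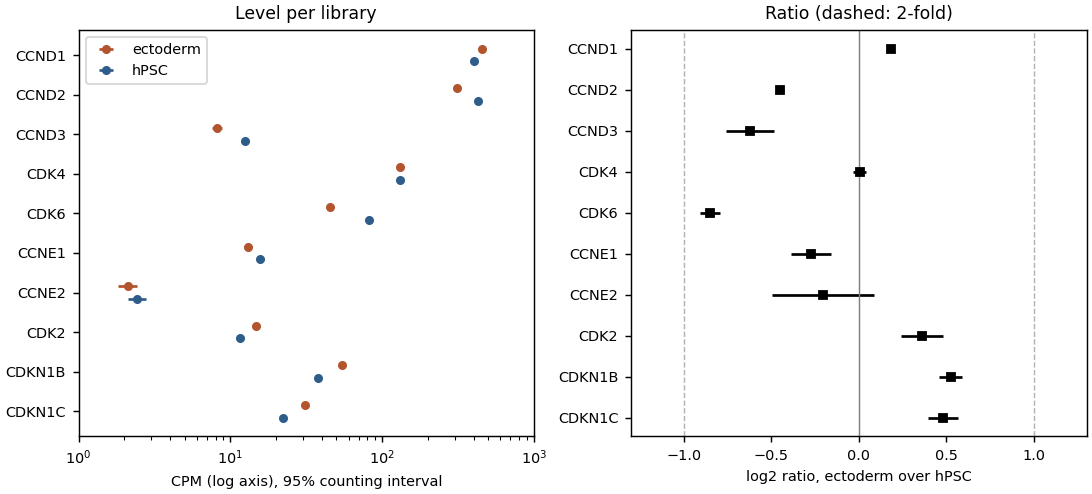
Left, level of each of the 10 regulators in CPM on a log axis, in the ectoderm library (orange) and the hPSC library (blue), with 95% counting intervals. Right, log2 ratio of ectoderm over hPSC with its interval, and dashed lines at 2-fold; CDK6 lies nearest to a line, at -0.85, and CDK4 lies at 0.00.

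CCND1, the D cyclin that answers most directly to growth factor signals, lies at chr11:69641087-69654474 (plus strand, GRCh38). It stood at 457 CPM in ectoderm (interval 453 to 462) and 403 CPM in hPSC (399 to 407), a log2 ratio of 0.18 (0.16 to 0.20). CCND2, a second D cyclin, at chr12:4273772-4305350 on the plus strand, stood at 311 CPM in ectoderm, against 425 CPM in hPSC, a log2 ratio of -0.45 (-0.47 to -0.43). The 2 abundant D cyclins thus differed in opposite directions, and both differences exceeded counting error. CCND3, the D cyclin best known from blood cells, at chr6:41934933-42050357 on the minus strand, was measured at only 8.14 CPM in ectoderm and 12.5 CPM in hPSC, under the 20 CPM needed for a call.

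Taken as one pool, D cyclin UMIs were 777 CPM in ectoderm and 841 CPM in hPSC. CCND1 made up 58.9% of that pool in ectoderm (58.5 to 59.2) and 47.9% in hPSC (47.6 to 48.3). CCND2 made up 40.1% of the pool in ectoderm and 50.6% in hPSC, so the larger component was CCND1 in ectoderm and CCND2 in hPSC. CCND3 was 1.05% of the pool in ectoderm and 1.49% in hPSC. These UMIs come from 3′ ends and are not scaled by gene length, so the shares serve for the comparison between libraries.

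CDK4 and CDK6 are the partner kinases of the D cyclins. CDK4, at chr12:57747727-57756013 on the minus strand, stood at 132 CPM in ectoderm, against 131 CPM in hPSC, and its interval of -0.03 to 0.04 on the log2 scale leaves room for only a small difference in counting terms. CDK6, at chr7:92604921-92836594 on the minus strand, stood at 45.6 CPM in ectoderm, against 82.2 CPM in hPSC, a log2 ratio of -0.85 (-0.91 to -0.79). It had the widest gap among the 6 tested members and still lay under 2-fold. CDK6 was 25.7% of the joint CDK4 and CDK6 UMIs in ectoderm (25.0 to 26.4) and 38.5% in hPSC (37.8 to 39.2).

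The E cyclins and CDK2 act after the D cyclins, and all 3 were scarce. CCNE1, at chr19:29811898-29824308 on the plus strand, stood at 13.1 CPM in ectoderm, against 15.8 CPM in hPSC. CCNE2, at chr8:94879770-94896678 on the minus strand, had 192 UMIs in ectoderm and 202 UMIs in hPSC, which is 2.10 CPM and 2.43 CPM, and its interval of -0.50 to 0.09 on the log2 scale spans no difference. CDK2, at chr12:55966769-55972784 on the plus strand, stood at 14.9 CPM in ectoderm, against 11.6 CPM in hPSC. All 3 were under 20 CPM in both libraries and could not be called. CCNE1 was 86.1% of E cyclin UMIs in ectoderm and 86.7% in hPSC, shares within counting error of each other.

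The inhibitors were both at higher levels in ectoderm. CDKN1B, at chr12:12715058-12722371 on the plus strand, stood at 54.7 CPM in ectoderm (53.2 to 56.2) and 38.0 CPM in hPSC (36.7 to 39.4), a log2 ratio of 0.52 (0.46 to 0.59). CDKN1C, an imprinted gene at chr11:2883213-2885773 on the minus strand, stood at 31.1 CPM in ectoderm (30.0 to 32.3) and 22.3 CPM in hPSC (21.3 to 23.4), a log2 ratio of 0.48 (0.40 to 0.57). CDKN1B was 63.7% of their joint UMIs in ectoderm and 63.0% in hPSC, so the balance between the inhibitors was close while their sum was 85.8 CPM in ectoderm, against 60.3 CPM in hPSC.

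The same comparison was made in cells whose only guide found in the amplicon tables was a non-targeting one, 159 ectoderm cells and 212 hPSC cells. CDK6 stood at 50.1 CPM in these ectoderm cells and 84.0 CPM in these hPSC cells, a log2 ratio of -0.75 (-1.26 to -0.25). CCND2 stood at 314 CPM and CCND1 at 483 CPM in these ectoderm cells, and at 430 CPM and 397 CPM in these hPSC cells. CDKN1B stood at 51.0 CPM in ectoderm, against 36.0 CPM in hPSC, with an interval of -0.10 to 1.11 on the log2 scale. CDKN1C had 33 UMIs in ectoderm and 41 UMIs in hPSC, or 32.4 CPM and 32.8 CPM, a log2 ratio of -0.02 (-0.73 to 0.68). The higher CDKN1C level of the whole ectoderm library was thus not seen in this subset, though the counts are few.

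Other genes of the G1 pathway, 36 in a list that was drawn up with results of these data known, included 23 at the tested level. Of these, 0 were called higher and 1 was called lower, CDKN1A, the inhibitor p21. It stood at 16.2 CPM in ectoderm, against 77.3 CPM in hPSC (log2 ratio -2.26). CDKN1A reached 20 CPM only through hPSC, so any call on it had to be lower in ectoderm. Those calls stand beside 3.25% of all genes called higher and 4.03% called lower. The list's median log2 ratio was -0.12, against -0.03 for all genes tested. The next lowest were CDKN3, a phosphatase that acts on cyclin-dependent kinases, at 75.2 CPM in ectoderm, against 125 CPM in hPSC, and MNAT1, an assembly factor of the CDK-activating kinase, at 39.5 CPM in ectoderm, against 64.5 CPM in hPSC. The highest was TFDP1, the dimer partner of E2F proteins, at 31.8 CPM in ectoderm, against 17.7 CPM in hPSC (log2 ratio 0.84). TFDP2, a second dimer partner, stood at 103 CPM in ectoderm, against 76.4 CPM in hPSC, and CUL1, the scaffold of the ubiquitin ligase that removes p27, at 44.5 CPM in ectoderm, against 37.7 CPM in hPSC. Of the INK4 inhibitors, which bind CDK4 and CDK6 alone, CDKN2A stood at 0.186 CPM in ectoderm, against 0.324 CPM in hPSC, and CDKN2D at 3.07 CPM in ectoderm, against 3.54 CPM in hPSC. CDKN2B had 1 UMI in ectoderm and 5 in hPSC, and CDKN2C had 3 UMIs in ectoderm and 0 in hPSC.

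Detection per cell was compared after thinning each cell to 3000 UMIs, which left 13298 ectoderm cells and 13862 hPSC cells and dropped 3062 and 1464 shallower cells of those libraries. CCND1 had a UMI in 73.1% of thinned ectoderm cells and 67.0% of thinned hPSC cells (84.4% and 81.8% before thinning). CCND2 had a UMI in 59.0% of ectoderm cells and 69.4% of hPSC cells (73.8% and 82.9% before thinning). At least 1 D cyclin was detected in 88.3% of ectoderm cells and 89.6% of hPSC cells, and both CCND1 and CCND2 in 44.0% of ectoderm cells and 47.1% of hPSC cells. No cell type that should lack these genes was defined in these cultures, so the share that free RNA gives was not measured.

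**Figure D2:**
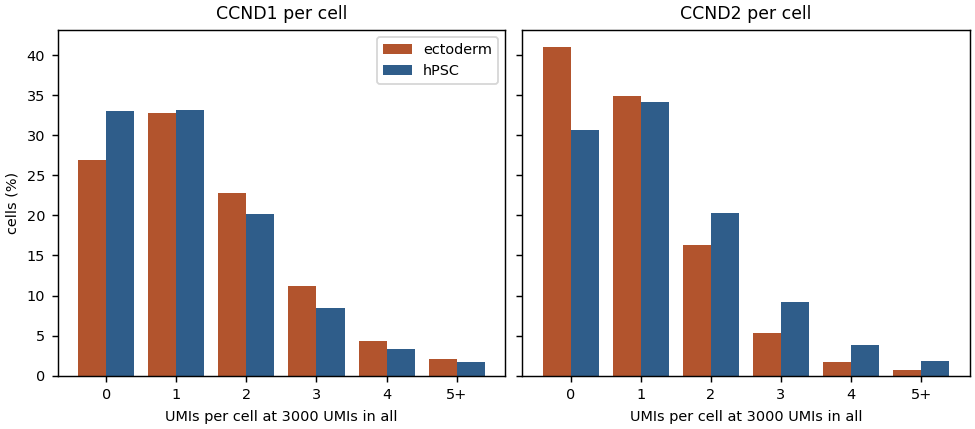
Share of cells (percent) by the number of CCND1 UMIs (left) and CCND2 UMIs (right) at 3000 UMIs per cell, in ectoderm (orange) and hPSC (blue). Cells without a CCND1 UMI are 26.9% of ectoderm cells and 33.0% of hPSC cells, and cells without a CCND2 UMI are 41.0% of ectoderm cells and 30.6% of hPSC cells.

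CDK4 was detected in 32.7% of ectoderm cells and 32.2% of hPSC cells (47.9% of cells in each library before thinning), and CDK6 in 12.7% of ectoderm cells and 21.1% of hPSC cells (20.8% and 33.4% before thinning). CDKN1B was detected in 15.0% of ectoderm cells and 10.5% of hPSC cells (25.0% and 17.9% before thinning), and CDKN1C in 8.68% of ectoderm cells and 6.31% of hPSC cells (15.2% and 11.0% before thinning). The remaining members were seen in few cells. CCNE1 was detected in 3.78% of ectoderm cells and 4.57% of hPSC cells (6.85% and 8.17% before thinning), and CCNE2 in 0.654% of ectoderm cells and 0.902% of hPSC cells (1.15% and 1.31% before thinning). CDK2 was detected in 4.24% of ectoderm cells and 3.20% of hPSC cells (7.76% and 6.08% before thinning), and CCND3 in 2.31% of ectoderm cells and 3.72% of hPSC cells (4.41% and 6.54% before thinning). At this depth a cell without a UMI of a member cannot be read as a cell that lacks it.

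Counts of CCND1 and CCND2 varied between cells a little more than counting alone would give. The ratio of variance to mean of CCND1 UMIs was 1.13 in ectoderm and 1.20 in hPSC, where a ratio of 1 is that of Poisson counts, and that of CCND2 was 1.13 in ectoderm and 1.20 in hPSC. The highest CCND1 count in a thinned cell was 10 in ectoderm and 8 in hPSC. For CDK4 the ratio was 1.02 in ectoderm and 1.00 in hPSC, and for CDK6 it was 1.08 in ectoderm and 1.05 in hPSC. Mean UMIs per thinned ectoderm cell were 1.40 for CCND1, 0.40 for CDK4 and 0.14 for CDK6, so these ratios do not compare members at a like level. Across the 45 pairs of members, cells with both genes were compared with the number expected from the product of the shares. CCND1 and CCND2 were found together 1.02 times as often as that product gives in ectoderm and 1.01 times in hPSC. Of the pairs with at least 20 expected cells, 0 of 37 in ectoderm and 1 of 39 in hPSC had an interval off 1, the pair being CCND3 and CCNE1, seen in 14 hPSC cells against 23.6 expected. These intervals treat the count of cells with both genes as Poisson, which is too wide for genes found in most cells. They therefore cannot show a weak association of CCND1 with CCND2. Spearman's rho between the UMIs of CCND1 and CCND2 in thinned cells was 0.05 in ectoderm and 0.07 in hPSC. In size, the departure of this pair from the product was small.

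The second comparison asked how each member followed a late cycle score, the share of a cell's UMIs that came from TOP2A, MKI67 and PLK1. These genes are made mainly in late S, G2 and M phase, and they summed to 565 CPM in ectoderm and 548 CPM in hPSC. In each library, cells with 0 UMIs of the 3 genes formed the group "none", and the remaining cells were split into 3 equal groups by share, called low, mid and high. The group none held 4410 ectoderm cells and 4325 hPSC cells. It depends on depth, since 2952 ectoderm cells and 3341 hPSC cells had exactly 1 UMI of the score, and median UMIs per cell were 5198.5 in the high group and 3229.5 in the group none of ectoderm, and 6181 in the high group and 3948 in the group none of hPSC.

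The inhibitors stood higher in cells with a high score. CDKN1B in ectoderm was at 45.8, 50.6, 56.5 and 62.8 CPM from none to high, and in hPSC at 29.1, 32.1, 39.9 and 48.2 CPM. Each step was upwards in both libraries. The log2 ratio of high over none was 0.46 in ectoderm (0.33 to 0.59) and 0.73 in hPSC (0.58 to 0.88). CDKN1C in ectoderm was at 28.3, 30.0, 29.5 and 35.9 CPM from none to high, a log2 ratio of 0.34 (0.18 to 0.51), and in hPSC at 18.8, 19.7, 22.4 and 27.2 CPM, a log2 ratio of 0.53 (0.34 to 0.73). At every level of the score, both inhibitors stood higher in ectoderm than in hPSC.

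Within a library a gene was called when either end group had 20 CPM or more and its log2 ratio reached 0.5 in either direction. Among the 6 members tested, 0 were called in ectoderm, where 4.14% of 6011 genes were, and 2 were called in hPSC, CDKN1B and CDKN1C, where 5.07% of 5959 genes were. CDKN1C in hPSC was at 18.8 CPM in the group none and reached 20 CPM only through the high group, at 27.2 CPM. Any call on it there thus had to be in that direction. CDKN1B in ectoderm lies just under the log2 ratio of 0.5, and whether the libraries differ in this was not tested. With cells thinned to 3000 UMIs, the log2 ratio of CDKN1B was 0.501 in ectoderm, where it then met the rule along with 4.72% of all genes, and 0.81 in hPSC. CDKN1C in hPSC no longer met the rule when 1 score gene was left out, with log2 ratios of 0.497 without TOP2A, 0.48 without MKI67 and 0.42 without PLK1. When all cells with a UMI of the score were set against the group none, neither inhibitor met the rule in hPSC, with log2 ratios of 0.47 for CDKN1B and 0.31 for CDKN1C. The median log2 ratio of the tested members was 0.06 in ectoderm and 0.08 in hPSC, and that of all genes tested was 0.03 in ectoderm and 0.05 in hPSC.

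**Figure D3:**
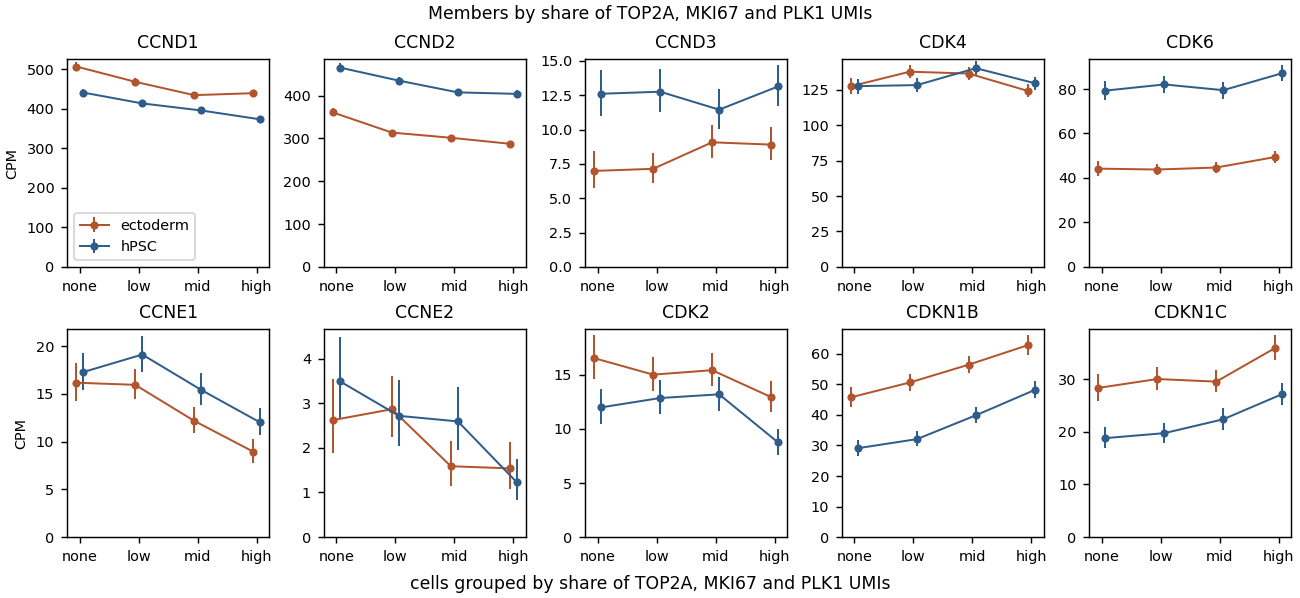
Level in CPM of each of the 10 regulators in cells grouped by their share of TOP2A, MKI67 and PLK1 UMIs (none, low, mid, high), in ectoderm (orange) and hPSC (blue), with 95% counting intervals. CDKN1B climbs to 62.8 CPM in ectoderm and 48.2 CPM in hPSC in the high group, while CCNE1 is lowest there, at 8.95 CPM in ectoderm, against 12.0 CPM in hPSC.

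The E cyclins and CDK2 ran the other way. CCNE1 in ectoderm was at 16.2, 15.9, 12.2 and 8.95 CPM from none to high, a log2 ratio of -0.85 (-1.12 to -0.59), and in hPSC at 17.3, 19.1, 15.4 and 12.0 CPM, a log2 ratio of -0.53 (-0.76 to -0.29). CCNE2 in ectoderm was at 2.62, 2.87, 1.59 and 1.54 CPM, and in hPSC at 3.49, 2.72, 2.59 and 1.23 CPM. CDK2 was at 12.9 CPM in the high group and 16.5 CPM in the group none of ectoderm, and at 8.75 CPM in the high group and 12.0 CPM in the group none of hPSC. For all 3, the interval of the high group over none lay under a ratio of 1 in both libraries, yet their levels were below 20 CPM and they could not be called.

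The abundant D cyclins were slightly lower in cells with a high score, by an amount that depends on TOP2A being in the score. CCND1 in ectoderm was at 507, 468, 434 and 439 CPM from none to high, and in hPSC at 441, 413, 395 and 373 CPM, log2 ratios of -0.21 and -0.24 for those libraries. CCND2 in ectoderm was at 360, 314, 301 and 287 CPM, and in hPSC at 465, 435, 407 and 404 CPM, log2 ratios of -0.33 and -0.20. With TOP2A left out of the score, the log2 ratio of CCND1 was -0.09 in ectoderm and -0.11 in hPSC, and that of CCND2 was -0.17 in ectoderm and -0.10 in hPSC. CCND1 was higher in ectoderm and CCND2 higher in hPSC in every one of the 4 groups. CDK4 differed little, with log2 ratios of -0.04 in ectoderm (-0.12 to 0.04) and 0.02 in hPSC (-0.06 to 0.10). CDK6 was at 49.4 CPM in the high group and 44.2 CPM in the group none of ectoderm, and at 87.1 CPM in the high group and 79.3 CPM in the group none of hPSC, so its gap between libraries appeared at both ends of the score.

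Across single cells the same relations were faint. Spearman's rho between a member's thinned UMIs and the score ran from -0.05 for CCND1 to 0.05 for CDKN1B over 13298 ectoderm cells, and from -0.06 for CCND1 to 0.07 for CDKN1B over 13862 hPSC cells. In counts this sparse such values are a description of the cells of each library and no finding. CDK4 had its log2 ratio of high over none on opposite sides of 0 in the libraries, and the CCND3 interval in hPSC, -0.19 to 0.31, included 0. The other members kept to the same side in both. The share of all genes that do so was not counted, so this is no trait of the members.

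The next comparison placed the members along S phase, by the share of UMIs from 20 genes of DNA replication that are none of the members, with cells in 5 equal groups by that share. CCNE1 stood higher in cells with a high share. In ectoderm it was at 8.45, 10.5, 11.2, 15.0 and 20.3 CPM from the lowest to the highest group, and in hPSC at 10.2, 14.3, 13.7, 19.4 and 20.7 CPM. The log2 ratio of the highest over the lowest group was 1.27 in ectoderm (0.96 to 1.58) and 1.02 in hPSC (0.73 to 1.31). CCNE1 was called in both libraries, the only call among 7 members tested in each, where 2.93% of 5997 genes in ectoderm and 3.18% of 5948 genes in hPSC were called. It reached 20 CPM only through its highest group, so any call on it had to be in that direction. With cells thinned to 3000 UMIs, CCNE1 in hPSC stayed under 20 CPM and was no longer called, at a log2 ratio of 0.80.

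CCNE2 was at 3.40 CPM in the highest and 1.64 CPM in the lowest group of ectoderm, and at 4.0 CPM in the highest and 1.34 CPM in the lowest group of hPSC. Both intervals lay above a ratio of 1, at levels too low for a call. CDK2 was at 19.8 CPM in the highest and 12.6 CPM in the lowest group of ectoderm, just short of the level for a call, with a log2 ratio of 0.65 (0.39 to 0.92). In hPSC it was at 12.3 CPM in the highest and 10.8 CPM in the lowest group, with an interval of -0.12 to 0.50 that includes no difference. CCND1 had log2 ratios of 0.23 in ectoderm and 0.22 in hPSC, and CCND2 of 0.04 in ectoderm and 0.02 in hPSC. The CCND2 ratio depended on the cells used. Among ectoderm cells with 0 UMIs of the score genes it was -0.28 (-0.41 to -0.16), and in ectoderm cells thinned to 3000 UMIs 0.08. Over the 3 alternatives run in hPSC it ranged from -0.20 to -0.0008.

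**Figure D4:**
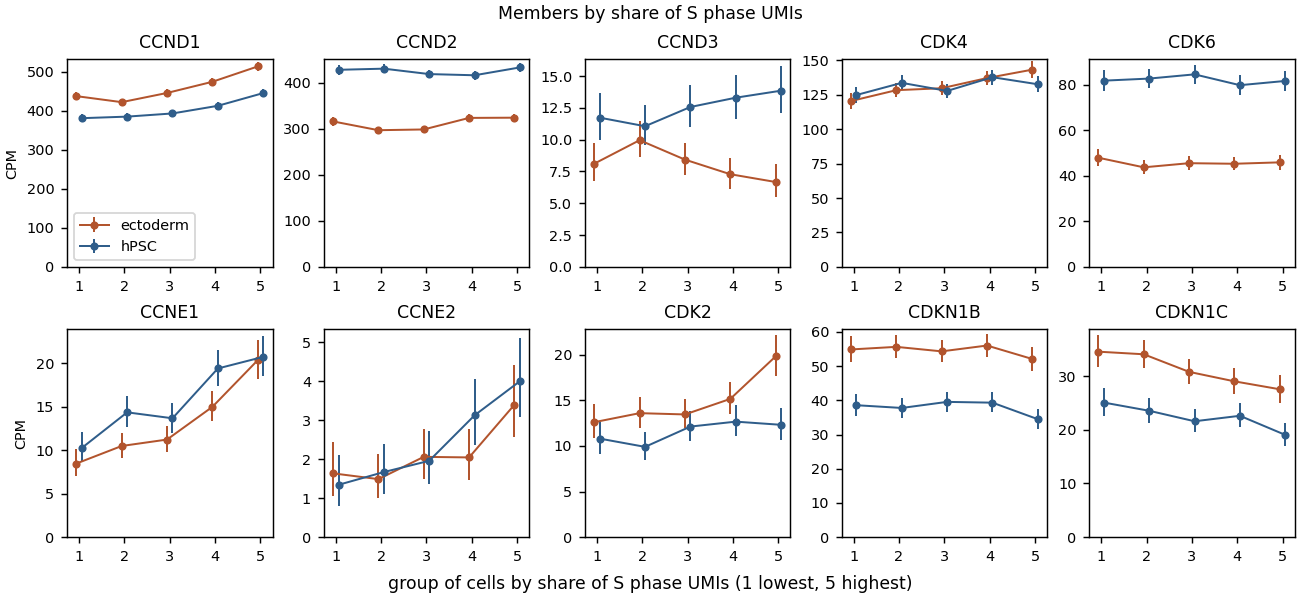
Level in CPM of each of the 10 regulators in 5 equal groups of cells by the share of UMIs from 20 S phase genes (1 lowest, 5 highest), in ectoderm (orange) and hPSC (blue), with 95% counting intervals. CCNE1 reaches 20.3 CPM in ectoderm and 20.7 CPM in hPSC in the highest group, while CDKN1B stays between 52.1 CPM and 56.0 CPM in ectoderm and between 34.5 CPM and 39.5 CPM in hPSC.

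CDKN1B, which was higher in cells with a high late cycle score, had intervals that include a ratio of 1 on the S phase scale, with log2 ratios of -0.08 in ectoderm (-0.22 to 0.07) and -0.16 in hPSC (-0.34 to 0.01). CDKN1C was at 27.6 CPM in the highest and 34.6 CPM in the lowest group of ectoderm, and at 19.1 CPM in the highest and 25.1 CPM in the lowest group of hPSC, log2 ratios of -0.33 and -0.40 whose intervals exclude a ratio of 1. CDK4 had log2 ratios of 0.25 in ectoderm and 0.09 in hPSC, and CDK6 of -0.06 in ectoderm and 0.00 in hPSC. The median of all genes tested was 0.04 in each library. Score genes summed to 388 CPM in the highest and 644 CPM in the lowest S phase group of ectoderm, and to 342 CPM in the highest and 655 CPM in the lowest of hPSC, so the shares run partly against each other.

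For that reason CCNE1 and CDKN1B were also laid out on both scales at once, with each score group divided at the median S phase share of its library. CCNE1 in ectoderm, from none to high, was at 19.9, 18.3, 14.2 and 12.0 CPM in cells above the median and at 12.2, 12.5, 9.95 and 6.90 CPM in cells below it. In hPSC it was at 20.2, 22.0, 17.1 and 14.0 CPM above the median and at 14.0, 14.6, 13.4 and 10.8 CPM below it. In all 4 score groups of both libraries CCNE1 was thus higher in the cells above the median S phase share, and on either side of the median it was lowest in the high score group. CDKN1B in ectoderm was at 43.9, 50.8, 55.1 and 65.1 CPM above the median and at 47.7, 50.4, 58.0 and 61.3 CPM below it, and in hPSC at 30.3, 32.1, 40.5 and 47.3 CPM above the median and at 27.7, 32.0, 39.1 and 48.7 CPM below it. Its order along the score was the same on both sides of the S phase median.

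**Figure D5:**
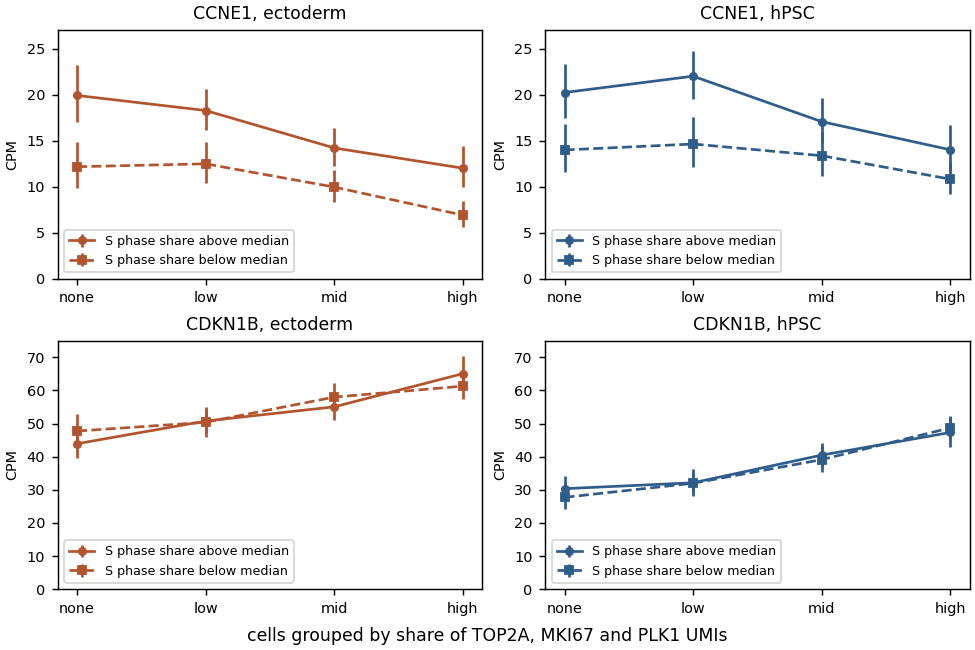
Level in CPM of CCNE1 (top) and CDKN1B (bottom) in ectoderm (left) and hPSC (right), by late cycle score group, for cells above (solid) and below (dashed) the library's median S phase share, with 95% counting intervals. The CCNE1 lines are apart, at 19.9 CPM and 12.2 CPM in the group none of ectoderm, and the CDKN1B lines lie close together, at 47.3 CPM and 48.7 CPM in the high group of hPSC.

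The last comparison grouped cells within each library in 3 equal groups by their share of UMIs from the 10 neural ectoderm markers and, separately, from the 10 pluripotency markers. No member was called on either scale, 0 of 6 tested each time. The share of all genes called was 2.20% in ectoderm and 0.357% in hPSC for the neural share, and 0.354% in ectoderm and 0.593% in hPSC for the pluripotency share. CDK6 had the widest difference on the pluripotency scale among the tested members. It was at 53.7 CPM in the top group and 38.6 CPM in the bottom group of ectoderm, a log2 ratio of 0.48 (0.36 to 0.59). In hPSC it was at 88.5 CPM in the top group and 75.4 CPM in the bottom group, a log2 ratio of 0.23 (0.14 to 0.32). The ectoderm ratio was 0.30 (0.03 to 0.57) among cells with 0 UMIs of the score genes. It was 0.35 (0.18 to 0.51) after thinning to 3000 UMIs, and 0.48 without the 5% of cells with most UMIs. CCND2 had a log2 ratio of 0.19 on this scale in each library and CCND1 of 0.11 in each.

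On the neural scale CDK6 was at 41.7 CPM in the top group and 51.1 CPM in the bottom group of ectoderm, a log2 ratio of -0.29 (-0.40 to -0.18). In hPSC it was at 90.3 CPM in the top group and 76.2 CPM in the bottom group, a log2 ratio of 0.25 (0.16 to 0.33). Among ectoderm cells with 0 UMIs of the score genes the neural ratio of CDK6 was 0.04 (-0.23 to 0.32), so the lower level was not seen in that subset. The ectoderm ratio was -0.22 (-0.38 to -0.05) after thinning to 3000 UMIs, and -0.31 without the 5% of cells with most UMIs. CCND1 had log2 ratios of 0.12 in ectoderm and 0.23 in hPSC, and CCND2 of 0.18 in ectoderm and 0.09 in hPSC. The neural markers summed to 3450 CPM in the top and 1417 CPM in the bottom group of ectoderm, and to 712 CPM in the top and 59.5 CPM in the bottom group of hPSC, so the same scale spans different ranges in the libraries.

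Some members overlap other annotated genes, and the strand setting of the counting is not given in the sources used here. On the strand opposite CDK4, TSPAN31 had 2478 UMIs in ectoderm and 1242 UMIs in hPSC, against 12036 and 10944 UMIs of CDK4 in those libraries. PMEL, opposite CDK2, had 2045 UMIs in ectoderm and 1823 UMIs in hPSC, and INTS8, opposite CCNE2, had 1987 UMIs in ectoderm and 1963 UMIs in hPSC, more than the gene it overlaps in each case. Without strand, reads from such partners cannot be told apart, which makes the small counts of CDK2 and CCNE2 the least certain of the set. The pseudogene copies CDK4P1, CCND2P1, CCND3P1 and CCND3P2 had 0 UMIs in both libraries.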

How the data were processed

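Per the submitters' processing notes, the tools used by the authors include STARsolo and STAR, and the build is GRCh38. The deposited matrices hold unscaled UMI counts for each gene in each cell. Tool versions, the annotation release and the strand setting were not given in the sources used here. In the deposited amplicon tables, each read's cell barcode of 16 bases is paired with a guide name matched by the authors, and the mismatch values are the authors' counts of bases. The labels give all samples the same protocol text, and groups were taken from titles.

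A barcode had to have 1000 UMIs, 500 genes and no more than 20% mitochondrial UMIs, which removed 0 of 16360 ectoderm and 7 of 15333 hPSC barcodes. Doublets stayed in, and no caller was run. UMIs were summed over cells and scaled to CPM, a scale of counts. Levels have exact Poisson intervals, log2 ratios exact conditional binomial intervals and shares exact Clopper-Pearson intervals. Non-targeting cells had 1 guide at 20 or more UMIs in the amplicon table, and the hPSC table ends at the row limit of a common spreadsheet format, so guides may be missing from it. Positions come from GENCODE v29 (GRCh38), and promoters from RefSeq. Named genes are all members, the 3 highest and 3 lowest tested genes of the pathway list and, for each tested member, the 2 genes most like it over 16 cell groups by Pearson r of log2(CPM + 1). The INK4 inhibitors, and the overlapping genes and pseudogenes, were named outside this rule. The members and all lists were chosen with earlier results of these data known.

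The steps were run on simulated counts of 5175 genes. For ectoderm over hPSC, 200 of 200 genes changed 3-fold and 0 of 4975 unchanged genes were called, and the intervals held the true ratio of 95.6% of genes. Within a library, 200 of 200 genes changed 2-fold and 0 of 4975 unchanged genes were called. The planted changes were larger than the call sizes, which were log2 ratios of 1 between libraries and 0.5 within a library. Full recovery was therefore largely set by the design. The simulation cannot tell how often calls on the members are wrong, since it does not measure variation between cultures. It also does not cover changes close to the call sizes. Software was Python 3.11.15 with NumPy 2.4.6, SciPy 1.17.1 and pandas 2.3.3, matplotlib 3.10.9, and R 4.3.3 with edgeR 4.0.16, used only for the trimmed mean of M-values as another scaling.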

Additional observations from a re-analysis of the deposited data

Results flagged for a closer look

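CDK6 stood on opposite sides of equality in the libraries when cells were compared by their share of neural ectoderm UMIs, the top over the bottom group having a log2 ratio of -0.29 in ectoderm and 0.25 in hPSC. The difference between these ratios was not tested, since each state is 1 library. Among ectoderm cells with 0 UMIs of the score genes the ratio was 0.04 (-0.23 to 0.32). In ectoderm it was -0.22 after thinning to 3000 UMIs and -0.31 without the 5% of cells with most UMIs. Neural markers at 5 CPM or more were 9 in ectoderm and 4 in hPSC, so the scale rests on fewer genes in hPSC.

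UMIs were also listed for antisense genes outside the set. CCND2-AS1, opposite CCND2, had 229 UMIs in ectoderm and 197 UMIs in hPSC. CDK6-AS1, opposite CDK6, had 47 UMIs in ectoderm and 82 UMIs in hPSC. These exceed the limit of 3 counts that a count of 0 allows. The part of strand in them was not tested.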

How the results depend on the processing

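No paired analysis was possible because each state is 1 library. No result reversed a called direction. Between the libraries, 0 members were called under all 9 alternatives run. These were both other scalings, 2 filters, score-negative cells, non-targeting cells, and cells with at least 2000 UMIs and at most 10% mitochondrial UMIs. The rest were equal weight per cell and the removal of the 5% of cells with most UMIs, an alternative chosen after seeing the data. The lowest ectoderm cell had 2071 UMIs, so the limit of 2000 UMIs removed no ectoderm cell. The share of all genes called was 30.8% with no filter (10 members tested), 8.81% at 5 CPM (9 tested), 11.6% in non-targeting cells and 7.16% to 7.44% under the others (6 tested). The other scalings added 0.08 (median of ratios) and 0.04 (trimmed mean) to every log2 ratio of ectoderm over hPSC. For the late cycle score, the count of members called in ectoderm was 1 instead of 0 after thinning to 3000 UMIs, with 4.72% of all genes called, and in cells with 1 guide, with 5.83%, against 4.14%. In hPSC it was 1 instead of 2 without TOP2A (4.22% of genes), without MKI67 (4.54%) or without PLK1 (5.01%), and 0 with all cells that had a UMI of the score set against none (2.02%), against 5.07%. For the S phase share, it was 2 instead of 1 in ectoderm cells with 0 score UMIs, with 8 instead of 7 members tested and 9.04% of all genes called, against 2.93%. The added call was CDK2, at a log2 ratio of 0.73 (0.12 to 1.37). CDK2 stood at 16.5 CPM over all those cells and met the level for a call through its highest group. In hPSC the count for the S phase share was 0 instead of 1 after thinning (2.60% of genes, against 3.18%). The neural and pluripotency counts were 0 under all alternatives run. The median share of cells in which a member was detected was 10.7% in ectoderm and 8.41% in hPSC at 3000 UMIs, 7.27% and 5.51% at 2000 UMIs, and 18.0% and 14.5% without thinning. Among values of single members, 342 moved by less than their interval and 88 by more. Where the cause of a change is not in the construction of the alternative, the cause was not tested. CCNE1, CCNE2, CDK2 and CCND3 are limited by depth, and CDKN1C in non-targeting cells by its 33 and 41 UMIs.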

Other observations

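Genes whose level ran most like a member's were sought among 6131 genes over 16 groups of cells, 8 per library, set by the late cycle score and the S phase share. The groups of a library share that library and its depth, so r is a description. Closest to CDK6 were PHC1 (r = 0.995) and ADCY2 (r = 0.994), with r of 0.813 and 0.809 within ectoderm and 0.776 and 0.635 within hPSC. Closest to CDKN1B were STX16 (r = 0.972) and CREBBP (r = 0.972), with r of 0.917 and 0.919 within ectoderm and 0.957 and 0.977 within hPSC. Closest to CDKN1C were WSB1 (r = 0.965) and MYLIP (r = 0.964).

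CCND1 ran most like NAP1L1 (r = 0.953) and PEG10 (r = 0.953), and CCND2 most like IFITM3 (r = 0.984) and ATIC (r = 0.983). CDK4 ran most like BOLA3 (r = 0.869) and MARS1 (r = 0.846), with r of 0.921 and 0.910 within ectoderm and 0.759 and 0.744 within hPSC.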
